A study of Homo sapiens with 10 samples.

Results

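The 10 genes described here encode the sestrins and their partners in amino acid sensing by mTORC1: SESN1, SESN2, SESN3, DDIT4, CASTOR1, RRAGC, RRAGD, TSC1, TSC2 and DEPDC5. They were taken by gene symbol from the 60671 genes of the normalized count table, each matched 1 row, and all 10 passed the minimum mean of 10 normalized counts that was set for testing. RNA-seq was performed on U2OS cells, a human osteosarcoma cell line, in 10 libraries. The 3 EBSS+VBL+Gln+Ars libraries and the 3 EBSS+VBL+Ars libraries came from cells kept for 18 h in EBSS, a salt solution with glucose but no amino acids (AAs), without serum and with vinblastine (VBL), which disrupts microtubules, either with or without added glutamine (Gln). Both groups, and 3 Ars libraries from cells that had not been starved, then received arsenite for 50 min, an oxidative stress that induces stress granules. A single Untreated library received none of these. AA starvation, serum withdrawal and VBL were given together, so their effects cannot be told apart, and every replicated group carried arsenite. The labels number the replicates but do not say whether they were separate cultures, so p-values measure only how far these libraries vary, possibly for technical reasons.

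mTORC1 is the kinase complex that drives protein synthesis and growth when AAs are plentiful. Heterodimers of Rag GTPases (RRAGA or RRAGB with RRAGC or RRAGD) bring it to the lysosome, where RHEB switches it on. GATOR1, whose subunit is DEPDC5, switches RRAGA and RRAGB off, and GATOR2 restrains GATOR1. Sestrins, which sense leucine, and CASTOR1, which senses arginine, hold GATOR2 in check when their AA is missing. The TSC1 and TSC2 complex switches RHEB off, and DDIT4, also named REDD1, acts through it. SESN2 and DDIT4 are known targets of ATF4 in the integrated stress response, and SESN3 of FOXO factors.

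The promoters of the members that moved most are shown as background for the levels that follow. That of TSC2 is added, as TSC2 was the only member searched in which a motif was found. Promoter windows from RefSeq (GRCh38.p14, 250 bases before to 50 bases after a start) were found for 9 of the 10 members. There was none for RRAGD, which was therefore not searched. The 3 motifs searched on both strands were TGATGNAA, the CARE bound by ATF4, in 3.62% of all 35116 windows of that length; TCACGTGA, the CLEAR motif bound by TFEB and its relatives, in 0.98%; and GTAAACA, bound by FOXO factors, in 3.42%. The TSC2 window printed below held TCACGTGA from base -115 and TGATGCAA from base -110, which overlap and are capitalized together. No other member window held any of these letters, and that includes another TSC2 window at a later start. Each line gives the 250 bases before the start, 5′ to 3′ on the gene's strand: SESN2 at chr1:28259268-28259517 (+), DDIT4 at chr10:72273674-72273923 (+), SESN3 at chr11:95232476-95232725 (-) and TSC2 at chr16:2047735-2047984 (+).
SESN2: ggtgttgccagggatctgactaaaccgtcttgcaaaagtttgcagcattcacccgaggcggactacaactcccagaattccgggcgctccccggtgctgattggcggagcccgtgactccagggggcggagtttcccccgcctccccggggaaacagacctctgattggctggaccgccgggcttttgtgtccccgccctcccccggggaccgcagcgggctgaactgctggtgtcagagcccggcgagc
DDIT4: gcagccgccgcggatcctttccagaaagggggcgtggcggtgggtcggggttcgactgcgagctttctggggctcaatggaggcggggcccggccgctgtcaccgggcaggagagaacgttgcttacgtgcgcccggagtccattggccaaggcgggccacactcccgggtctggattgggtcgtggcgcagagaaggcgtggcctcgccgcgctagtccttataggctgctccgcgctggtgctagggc
SESN3: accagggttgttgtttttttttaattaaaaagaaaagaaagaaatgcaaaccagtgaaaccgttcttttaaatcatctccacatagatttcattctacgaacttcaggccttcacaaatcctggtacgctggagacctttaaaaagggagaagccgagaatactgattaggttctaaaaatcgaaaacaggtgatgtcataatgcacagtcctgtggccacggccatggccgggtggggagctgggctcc
TSC2: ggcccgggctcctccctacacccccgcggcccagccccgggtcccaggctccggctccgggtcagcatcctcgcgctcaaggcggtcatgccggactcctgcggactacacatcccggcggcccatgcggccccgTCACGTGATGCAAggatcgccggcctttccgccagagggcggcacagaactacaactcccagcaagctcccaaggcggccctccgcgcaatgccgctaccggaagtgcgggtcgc
The GC content of these stretches was 65.6% for SESN2, 68.8% for DDIT4, 42.8% for SESN3 and 71.6% for TSC2. A match is a description of the letters, and no match says only that the letters are not in this window.

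Recovered reads ranged from 3538017 to 7019842 per library, of which RN7SL1, a small cytoplasmic RNA, took 7.88 to 20.2%. VIM, SPARC, COL1A1 and RUNX2, chosen as markers of a mesenchymal or osteosarcoma line, were present in every library (RUNX2, the lowest, at 77.0 to 181 normalized counts). The epithelial markers EPCAM and CDH1 reached at most 10.5, the leukocyte marker PTPRC 2.25 and the endothelial marker PECAM1 1.11 normalized counts, and the hepatocyte marker ALB was 0 throughout. In bulk RNA, fewer cells expressing a gene and less RNA per cell cannot be told apart.

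The sestrins moved in opposite directions. SESN2, the leucine sensor, was 10.1-fold higher in EBSS+VBL+Ars against Ars, SESN3 was lower in starved cells, and SESN1 was low everywhere. SESN2 (1:28259518-28282491, + strand, hg38) had 2986, 3714 and 2807 normalized counts in EBSS+VBL+Gln+Ars, 4368, 5778 and 5577 in EBSS+VBL+Ars, 473, 581 and 489 in Ars, and 513 in Untreated cells. The groups of starved cells did not overlap each other or the Ars group, and the Untreated library lay inside the Ars range. The log2 fold change was 3.34 ± 0.13 (SE, n = 3 per group, limma adjusted p = 2.49e-13) in EBSS+VBL+Ars against Ars, rank 53 of 12971 genes from the highest. It was 2.62 ± 0.13 (adjusted p = 1.56e-11) in EBSS+VBL+Gln+Ars against Ars.

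SESN3 (11:95165513-95232541, - strand), a sestrin with weak leucine binding, had 21.6, 16.3 and 15.1 normalized counts in EBSS+VBL+Gln+Ars, 23.6, 15.7 and 15.5 in EBSS+VBL+Ars, 117, 117 and 129 in Ars, and 23.8 in Untreated cells. Only the Ars libraries were high, and the 6 starved libraries lay below the Untreated value of 23.8 (95% counting interval 15.4 to 35.1). SESN3 fell by 2.69 ± 0.23 (SE) on the log2 scale in EBSS+VBL+Ars against Ars (adjusted p = 1.02e-08) and by 2.73 ± 0.23 in EBSS+VBL+Gln+Ars against Ars (adjusted p = 1.52e-08). An antisense RNA that shares 98 exon bases with SESN3, LNCRNA-IUR, stood at 0 to 10.9 normalized counts, and strand use in counting is not given in the sources used here. SESN1 (6:108984309-109094846, - strand) had 8.66, 16.3 and 16.4 normalized counts in EBSS+VBL+Gln+Ars, 8.99, 10.5 and 15.5 in EBSS+VBL+Ars, 24.3, 13.0 and 26.8 in Ars, and 10.5 in Untreated cells. These groups overlapped, with Ars replicate 2 among the starved values. SESN1 did not pass the test in EBSS+VBL+Ars against Ars (log2 fold change -0.80, 95% interval -1.54 to -0.06, adjusted p = 0.0627), and leaving out Ars replicate 2 (adjusted p = 0.0182) or EBSS+VBL+Ars replicate 3 (0.0399), rescaling to equal totals (0.0313) or edgeR (0.0391) put it past the threshold. SESN1 rested on 6 to 36 reads per replicated library.

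Per kb of annotated exon, SESN2 made up 99.6 to 99.7% of the summed level of the 3 sestrins in EBSS+VBL+Gln+Ars, 99.7 to 99.8% in EBSS+VBL+Ars, 89.9 to 92.9% in Ars and 97.6% in Untreated cells. The lengths were unions of all annotated exons, 3462 bases for SESN2, 10578 for SESN3 and 7276 for SESN1, and the shares depend on them. The share of SESN3 was 6.14 to 7.77% in Ars and at most 0.24% in starved libraries. In starved cells SESN3 rested on few reads, 9 to 21 per EBSS+VBL+Ars library and 15 to 22 per EBSS+VBL+Gln+Ars library. Within libraries, the mean log2 ratio of SESN2 to SESN3 was 7.41 ± 0.35 (SD, n = 3) in EBSS+VBL+Gln+Ars, 8.10 ± 0.55 in EBSS+VBL+Ars and 2.07 ± 0.20 in Ars. The ratio differed by 6.03 between EBSS+VBL+Ars and Ars with no overlap (two-sided exact permutation p = 0.1, adjusted 0.15 over 12 ratio comparisons), where 0.1 is the smallest p that 3 against 3 allows. The plot of ratios shows these values by library.

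**Figure D1:**
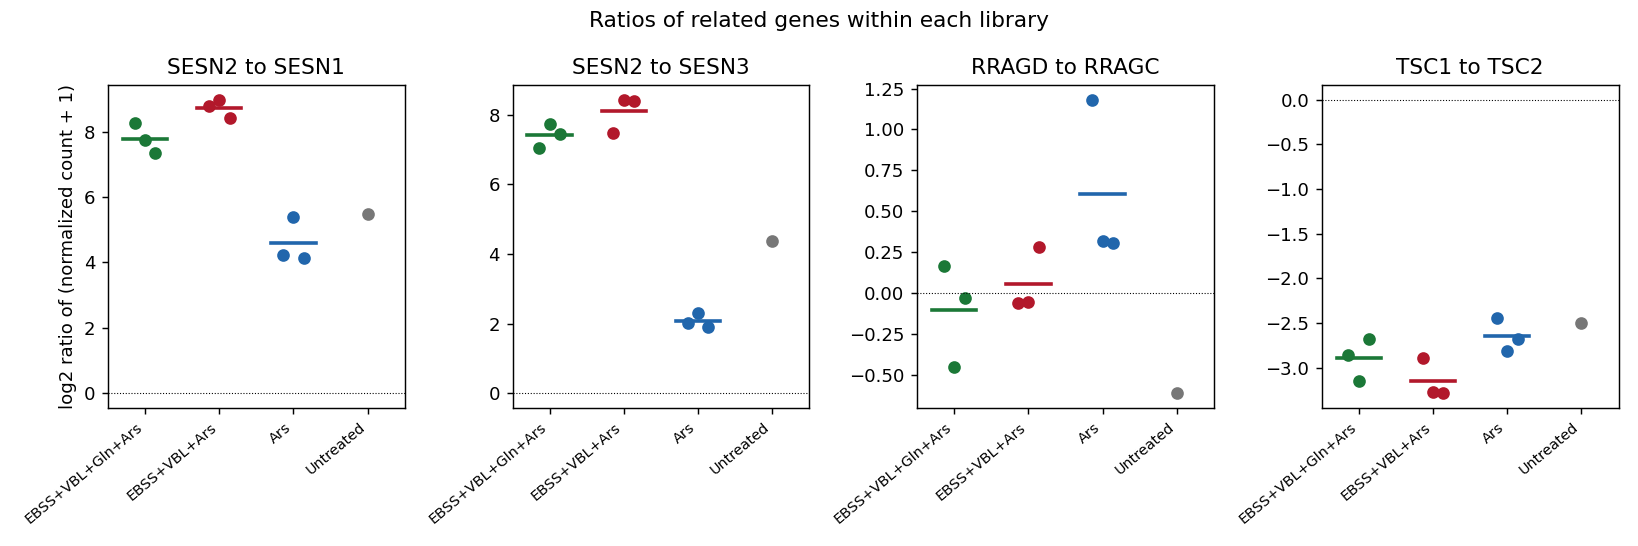
Log2 ratio of normalized counts (each plus 1) within each library, for 4 pairs of related genes. Points are libraries and bars are means of 3. Starved libraries sit between 7.04 and 8.43 for SESN2 to SESN3, above 1.91 to 2.30 in Ars and 4.37 in Untreated.

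DDIT4 (10:72273919-72276036, + strand), the stress-induced inhibitor of mTORC1, was highest in starved cells, intermediate in Ars and lowest in the Untreated library. It had 1668, 1942 and 1588 normalized counts in EBSS+VBL+Gln+Ars, 1911, 2315 and 2226 in EBSS+VBL+Ars, 672, 770 and 564 in Ars, and 98.9 in Untreated cells. Starved libraries all lay above Ars, and the Ars libraries all lay above Untreated. DDIT4 rose by 1.69 ± 0.12 (SE) on the log2 scale in EBSS+VBL+Ars against Ars (limma adjusted p = 1.21e-09) and by 1.38 ± 0.12 in EBSS+VBL+Gln+Ars against Ars (adjusted p = 3.52e-08). CASTOR1 (22:30285117-30289622, - strand), the arginine sensor, had 18.4, 16.3 and 12.3 normalized counts in EBSS+VBL+Gln+Ars, 11.2, 19.2 and 17.7 in EBSS+VBL+Ars, 23.6, 32.6 and 27.7 in Ars, and 15.2 in Untreated cells. The starved libraries were all below the Ars libraries. CASTOR1 fell by 0.79 ± 0.29 on the log2 scale in EBSS+VBL+Ars against Ars (adjusted p = 0.0259) and by 0.80 ± 0.29 in EBSS+VBL+Gln+Ars against Ars (adjusted p = 0.0298). Both calls were weak: without Ars replicate 2 the adjusted p was 0.0998 and 0.113, without Ars replicate 3 it was 0.0656 and 0.0748, without EBSS+VBL+Ars replicate 1 it was 0.108 in the first comparison, and without EBSS+VBL+Gln+Ars replicate 2 or 3 it was 0.0529 or 0.121 in the second. DESeq2 on recovered reads gave 0.0575 in the first comparison.

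The Rag GTPases RRAGC and RRAGD, alternative partners of RRAGA and RRAGB, were higher in starved cells. RRAGC (1:38838198-38859772, - strand) had 34.6, 47.9 and 33.6 normalized counts in EBSS+VBL+Gln+Ars, 52.8, 47.1 and 39.8 in EBSS+VBL+Ars, 12.8, 21.4 and 23.5 in Ars, and 26.6 in Untreated cells. All 6 starved libraries lay above all Ars libraries and the Untreated one. RRAGC rose by 1.27 ± 0.25 (SE) on the log2 scale in EBSS+VBL+Ars against Ars (adjusted p = 0.000303) and by 1.00 ± 0.25 in EBSS+VBL+Gln+Ars against Ars (adjusted p = 0.00335). RRAGD (6:89364616-89412273, - strand), a gene known to be switched on by TFEB, had 39.0, 34.8 and 32.9 normalized counts in EBSS+VBL+Gln+Ars, 50.5, 45.4 and 48.6 in EBSS+VBL+Ars, 30.4, 27.0 and 29.3 in Ars, and 17.1 in Untreated cells. None of these groups overlapped. RRAGD rose by 0.72 ± 0.20 in EBSS+VBL+Ars against Ars (adjusted p = 0.00469), a call lost when libraries were rescaled to equal totals (0.54, adjusted p = 0.0541), and did not pass in EBSS+VBL+Gln+Ars against Ars (0.29, interval -0.13 to 0.70, adjusted p = 0.253). The mean log2 ratio of RRAGD to RRAGC was -0.10 ± 0.31 (SD, n = 3) in EBSS+VBL+Gln+Ars, 0.06 ± 0.20 in EBSS+VBL+Ars and 0.60 ± 0.50 in Ars, and the highest value, 1.18, came from Ars replicate 1. The difference of EBSS+VBL+Ars from Ars was -0.55 (exact permutation p = 0.1, the smallest possible, adjusted 0.15), and -0.26 without that library.

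Of the TSC complex, TSC2 rose in starved cells and TSC1 did not pass the test. TSC2 (16:2047967-2089491, + strand), the part that acts on RHEB, had 1150, 1354 and 1081 normalized counts in EBSS+VBL+Gln+Ars, 1384, 1727 and 1761 in EBSS+VBL+Ars, 811, 1113 and 975 in Ars, and 894 in Untreated cells. The EBSS+VBL+Ars libraries were the highest, and only the EBSS+VBL+Gln+Ars and Ars groups overlapped. TSC2 rose by 0.75 ± 0.13 (SE) on the log2 scale in EBSS+VBL+Ars against Ars (adjusted p = 6.86e-05) and by less than the threshold in EBSS+VBL+Gln+Ars against Ars (0.31, adjusted p = 0.0579). With equal totals (0.57) or quantile normalization (0.43) the first change was under 1.5-fold. TSC2 shares 784 exon bases with PKD1 on the opposite strand. PKD1 had 2766 to 3535 normalized counts in EBSS+VBL+Gln+Ars, 4539 to 6997 in EBSS+VBL+Ars, 820 to 1183 in Ars and 1651 in Untreated cells, and its part in the TSC2 values was not tested.

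TSC1 (9:132891348-132946874, - strand), which stabilizes TSC2, had 158, 152 and 168 normalized counts in EBSS+VBL+Gln+Ars, 185, 178 and 180 in EBSS+VBL+Ars, 148, 157 and 152 in Ars, and 157 in Untreated cells. The EBSS+VBL+Ars libraries lay above all others, but the difference was small (0.25, interval -0.0046 to 0.50, adjusted p = 0.0878 against Ars). DEPDC5 (22:31753867-31908033, + strand), the subunit of GATOR1, had 70.3, 75.1 and 78.8 normalized counts in EBSS+VBL+Gln+Ars, 67.4, 92.5 and 77.3 in EBSS+VBL+Ars, 82.4, 88.5 and 83.0 in Ars, and 64.7 in Untreated cells. Its values were close in all groups, and its log2 fold change in EBSS+VBL+Ars against Ars was -0.11 (interval -0.44 to 0.23, adjusted p = 0.589). RRAGC, CASTOR1, DEPDC5, SESN1 and TSC1 also share exon bases with other annotated genes, and none of those genes exceeded 1.90 normalized counts in any library.

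**Figure D2:**
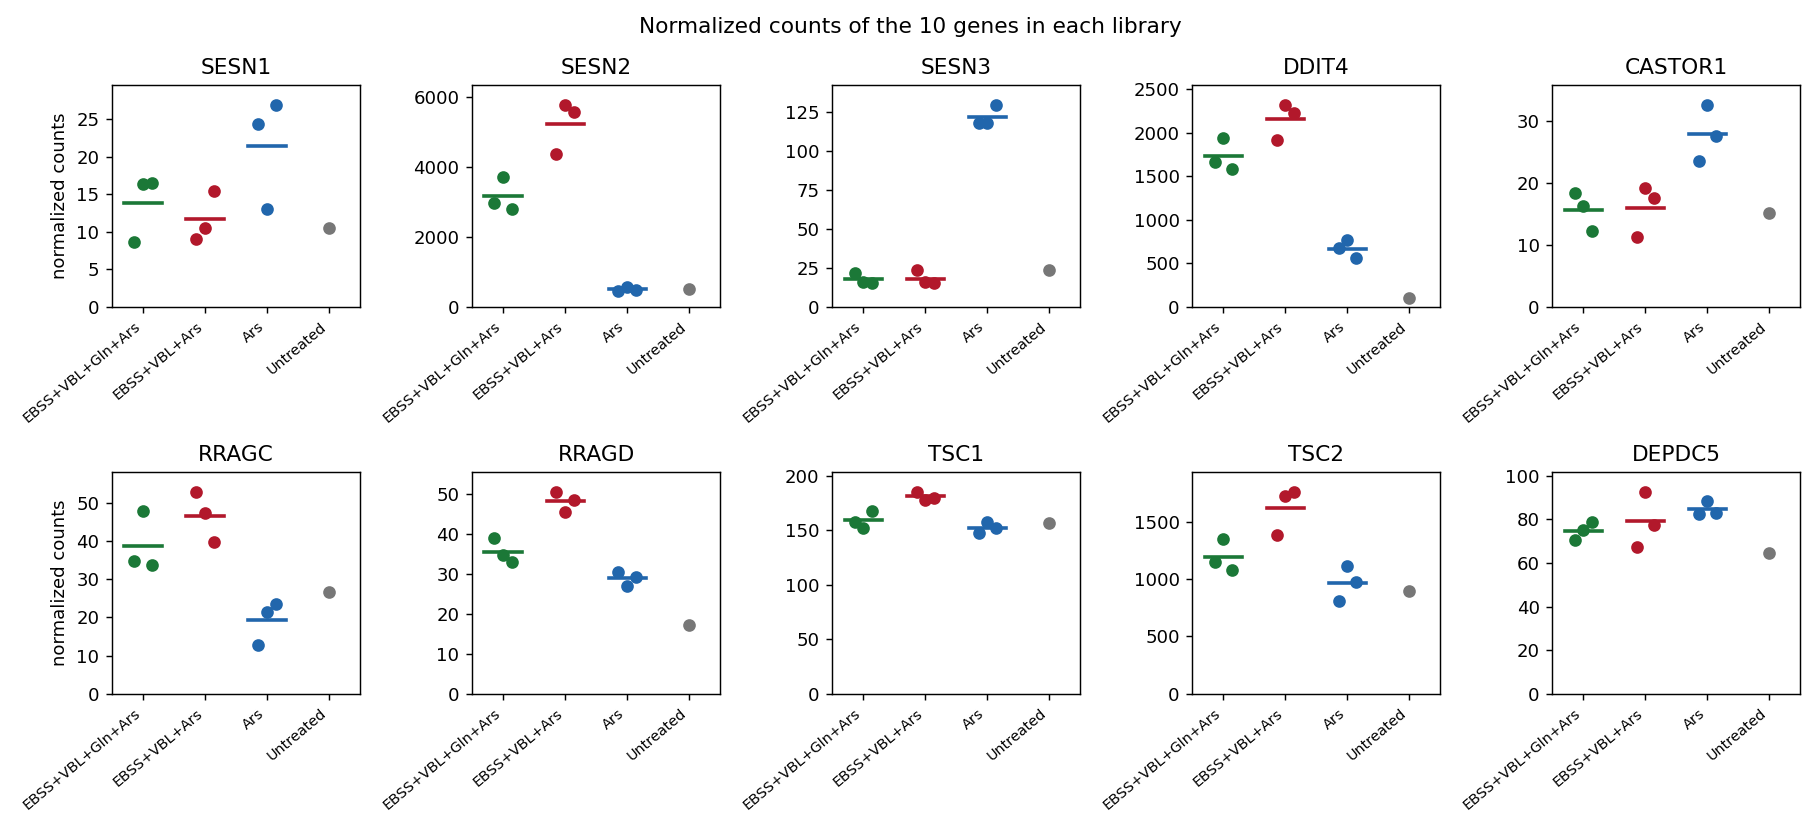
Normalized counts of each gene (y axis, from 0) in the 10 libraries. Points are libraries, coloured by group, and bars are means of 3; the Untreated group has 1 library. SESN2 lies at 2807 to 5778 in starved cells and at 473 to 581 in Ars, whereas SESN3 lies at 15.1 to 23.6 in starved cells and at 117 to 129 in Ars.

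Over EBSS+VBL+Ars against Ars, which asks how starvation with VBL alters the transcripts of arsenite-treated cells, 5 of the 10 members were called higher (SESN2, DDIT4, RRAGC, RRAGD and TSC2) and 2 lower (SESN3 and CASTOR1). To be called, a gene needed a minimum change of 1.5-fold and an adjusted p under 0.05. Of all 12971 genes tested, 21.5% were called higher and 21.3% lower. The groups did not overlap for 8 members, against 60% of all genes. The members' median log2 fold change was 0.48, against 0.02 for all genes. Against the same Ars libraries, 3 members were called higher in EBSS+VBL+Gln+Ars (SESN2, DDIT4 and RRAGC), with 16.5% of all genes called higher, and 2 lower (SESN3 and CASTOR1), with 15.3% of all genes called lower. The groups did not overlap for 7 members, against 57.2% of all genes. The members' median was 0.18, against 0.02 for all genes.

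In EBSS+VBL+Gln+Ars against EBSS+VBL+Ars, which asks what glutamine changes in starved cells, SESN2 was the only member called. SESN2 fell by 0.73 ± 0.13 (SE) on the log2 scale (interval -0.998 to -0.45, adjusted p = 0.000544), and its EBSS+VBL+Gln+Ars libraries still lay above all Ars libraries. No member was called higher, with 8.45% of all genes called higher, and 1 was called lower, with 8.52% of all genes called lower. The groups did not overlap for 4 members (SESN2, RRAGD, TSC1 and TSC2), against 39.2% of all genes. The members' median was -0.23, against 0.004 for all genes. TSC2 passed the p threshold but not the fold (-0.44 ± 0.13, adjusted p = 0.0162). DDIT4 (-0.31, interval -0.57 to -0.05, adjusted p = 0.0643) and RRAGD (-0.43, interval -0.85 to -0.01, adjusted p = 0.112) missed the threshold. For SESN3 the difference was -0.03 (interval -0.51 to 0.45), and for CASTOR1 it was -0.01 (interval -0.62 to 0.59); both were positive but not called with equal totals.

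The fall of SESN2 with glutamine kept an adjusted p of 0.0125 or less in each alternative, but its size depended on the scaling. It was -0.44 (adjusted p = 0.00877) with libraries rescaled to equal totals and -0.40 (adjusted p = 0.0125) with quantile normalization, both under 1.5-fold. With equal totals the median of all genes was 0.28 in this comparison, -0.16 in EBSS+VBL+Ars against Ars and 0.12 in EBSS+VBL+Gln+Ars against Ars. Over 12960 genes the change with glutamine was correlated with the GC content of transcripts at r = -0.38 (genes are not independent). SESN2 transcripts had 59.6% GC, against a median of 50.5% over genes, and with the GC trend removed SESN2 stood at -0.51 (adjusted p = 0.000481), also under 1.5-fold. The call was therefore lost in these 3 settings, and with the GC trend removed together with a replicate block.

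**Figure D3:**
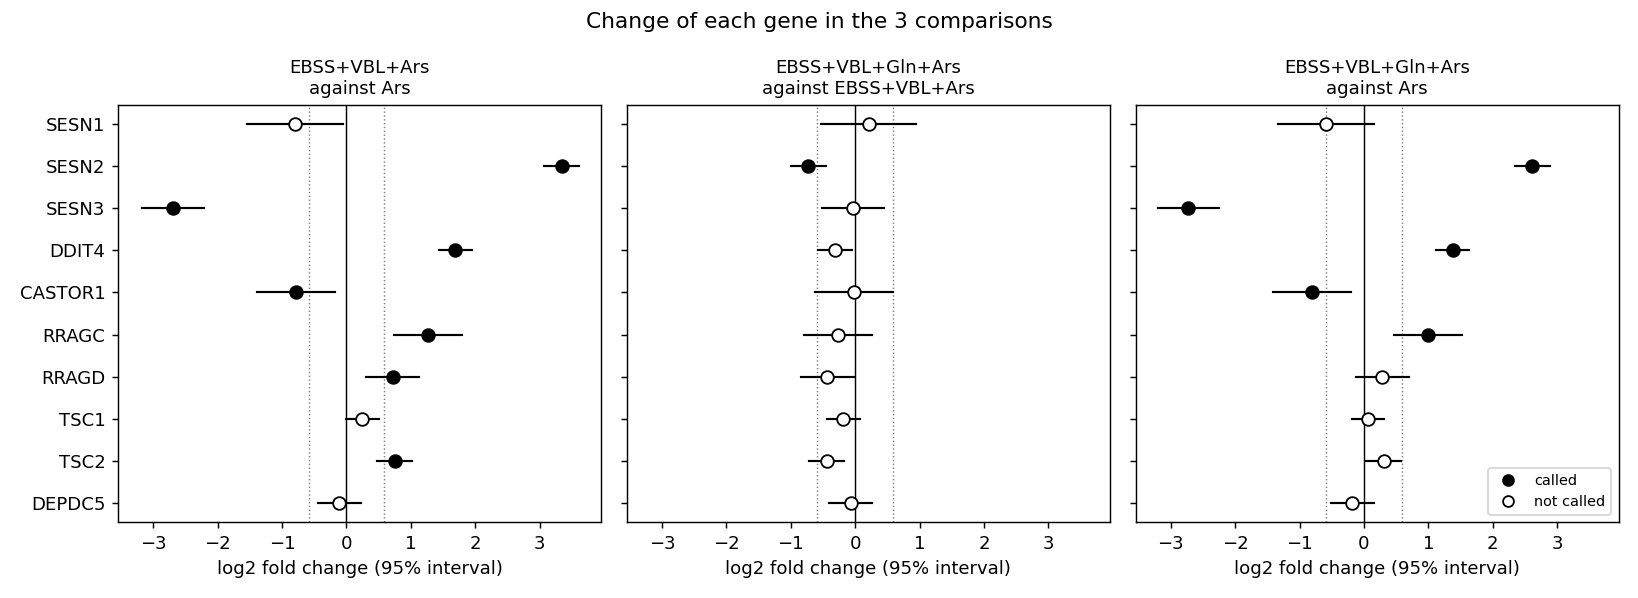
Log2 fold change of each gene (x axis) with its 95% interval in the 3 comparisons (n = 3 libraries per group, limma). Filled points were called, and dotted lines mark a 1.5-fold change. SESN2 is at 3.34, -0.73 and 2.62 from left to right, and SESN3 is at -2.69, -0.03 and -2.73.

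Levels could be ranked between genes only per kb of exon, where the length was the union of all annotated exons of a gene. This union was 20527 bases for TSC2, 17600 for TSC1 and 17927 for DEPDC5, against 3462 for SESN2 and 2118 for DDIT4. It can exceed the length of the transcripts expressed, so the order depends on this choice, and other lengths were not tested. With starvation and glutamine, SESN2 (915 ± 139 normalized counts per kb, SD, n = 3) and DDIT4 (818 ± 88) overlapped at the top, followed by TSC2 (58.2 ± 6.9). In EBSS+VBL+Ars, SESN2 (1514 ± 220) lay above DDIT4 (1015 ± 100), and TSC2 (79.1 ± 10.2) came next, with no overlap. In Ars the first places were exchanged: DDIT4 (316 ± 49) lay above SESN2 (149 ± 17), again with no overlap. In Untreated cells SESN2 was at 148 and DDIT4 at 46.7 normalized counts per kb. The other members lay at or below 12.2 normalized counts per kb in every library. TSC1, RRAGC, RRAGD and CASTOR1 formed an overlapping run in EBSS+VBL+Gln+Ars, RRAGD and RRAGC overlapped in EBSS+VBL+Ars, and SESN3, CASTOR1 and TSC1 formed an overlapping run in Ars. SESN1 was last or next to last in each group.

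The single Untreated library allows no test, and its values carry counting error only. Against it, the mean of the 3 Ars libraries was 6.76-fold higher for DDIT4 (5.58 to 8.28, from the exact Poisson interval of the Untreated count) and 5.10-fold higher for SESN3 (3.46 to 7.89). Each of the 3 Ars libraries lay above the Untreated value for both genes. The Untreated value lay inside the Ars range for SESN2 (fold 1.00, 0.92 to 1.09), TSC1 (0.97, 0.83 to 1.14) and TSC2 (1.08, 1.01 to 1.15). It lay below the Ars range for SESN1 (fold 2.05, 1.14 to 4.10), CASTOR1 (1.84, 1.13 to 3.22), RRAGD (1.69, 1.07 to 2.85) and DEPDC5 (1.31, 1.03 to 1.69), and above it for RRAGC (0.72, 0.50 to 1.09).

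The genes most like a member were sought by Pearson's r of log2 levels over the 9 replicated libraries, among the 6006 genes that averaged 100 normalized counts or more. The genes compared share libraries and depth, so r is given as a description. For SESN2 the most alike were CHAC1 (r = 0.9995), which degrades glutathione, TRIB3 (0.9984), a pseudokinase, and ADM2 (0.9978), a peptide hormone. CHAC1 averaged 1716 normalized counts in EBSS+VBL+Gln+Ars, 2572 in EBSS+VBL+Ars and 383 in Ars. For SESN3 they were PRAME (0.9928), TSC22D1 (0.9917) and KRT8 (0.9903), each lower in starved than in Ars cells. For DDIT4 they were TJAP1 (0.9964), GIGYF1 (0.9957) and IL4R (0.9949). For SESN1, with few reads, no gene exceeded 0.87, and TRABD2B, DNAAF5 and CD40 came first.

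Among 6 reference genes of the integrated stress response, ATF4, DDIT3, TRIB3, ASNS and CHAC1 were called higher in EBSS+VBL+Ars against Ars. EIF2AK4, the kinase GCN2, was called lower. Of all genes, 21.5% were called higher and 21.3% lower in this comparison. ATF4, the transcription factor, averaged 3747 normalized counts in EBSS+VBL+Gln+Ars, 4612 in EBSS+VBL+Ars and 1695 in Ars. With glutamine, DDIT3, TRIB3 and ASNS were called lower, where 8.52% of all genes were called lower. ATF4 (-0.30, limma adjusted p = 0.0289) and CHAC1 (-0.583, adjusted p = 0.00252) passed the p threshold but not the fold, which CHAC1 missed narrowly. EIF2AK4 was not called (0.15, adjusted p = 0.547). The FOXO factors FOXO3 (1.56, adjusted p = 1.43e-07) and FOXO1 (1.29, adjusted p = 0.000523) rose in EBSS+VBL+Ars against Ars on the log2 scale. In the Untreated library FOXO3 was at 339 normalized counts, between the 153 to 214 of Ars and the 429 to 670 of EBSS+VBL+Ars. FOXO1 was at 8.56 there, below the Ars range of 10.9 to 14.9.

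Beyond the members, 50 genes of the pathway were listed and 48 were tested, with DDIT4L and DEPTOR below the minimum. In EBSS+VBL+Ars against Ars, 16 of the 48 were called higher and 4 lower, where 21.5% of all genes were called higher and 21.3% lower. Their median log2 fold change was 0.31 (0.02 over all genes). The FLCN complex, which acts on RRAGC and RRAGD, had 2 of 3 genes called higher (21.5% of all genes). FLCN had 506, 655 and 567 normalized counts in EBSS+VBL+Gln+Ars, 739, 891 and 977 in EBSS+VBL+Ars, and 259, 329 and 271 in Ars. These groups did not overlap, and FLCN rose by 1.60 ± 0.13 on the log2 scale in EBSS+VBL+Ars against Ars (adjusted p = 6.16e-09), its partner FNIP1 by 1.66 ± 0.15 (adjusted p = 2.03e-08). Of 10 mTORC1 substrates, 6 were called higher and none lower (21.5% and 21.3% of all genes). EIF4EBP1, the translation repressor 4E-BP1, had 1534, 1564 and 1438 normalized counts in EBSS+VBL+Gln+Ars, 1551, 1613 and 1597 in EBSS+VBL+Ars, and 546, 562 and 540 in Ars. EIF4EBP1 rose by 1.53 ± 0.09 (adjusted p = 1.2e-10) and GRB10, an adaptor that dampens insulin signalling, by 1.19 ± 0.12 (adjusted p = 7.98e-08).

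Of the sensors, CASTOR2, the partner and relative of CASTOR1, had 121, 120 and 122 normalized counts in EBSS+VBL+Gln+Ars, 194, 166 and 239 in EBSS+VBL+Ars, 425, 589 and 528 in Ars, and 264 in Untreated cells. Its groups did not overlap, and it fell by 1.36 ± 0.14 in EBSS+VBL+Ars against Ars (adjusted p = 2.03e-07) and by 0.70 ± 0.14 with glutamine (adjusted p = 0.00156). CASTOR2 has a near-identical copy in the genome, so its reads may be split. SAMTOR, the sensor of S-adenosylmethionine, did not pass in EBSS+VBL+Ars against Ars (0.26, adjusted p = 0.36). Of 5 GATOR2 genes, 3 were called higher (21.5% of all genes), among them SEH1L (0.73, limma adjusted p = 2.23e-05). SEC13 was called lower (-0.68, adjusted p = 1.3e-05), and SEH1L and SEC13 also serve the nuclear pore. In the Untreated library SEH1L was at 394 normalized counts, between the 280 to 299 of Ars and the 432 to 549 of EBSS+VBL+Ars. SEC13 was at 415 there, between the 606 to 684 of Ars and the 391 to 396 of EBSS+VBL+Ars. Of 6 genes of GATOR1 and its anchor KICSTOR, NPRL2, a GATOR1 subunit, was called lower (-0.64, adjusted p = 0.00138). Of the mTORC1 subunits, RPTOR, the scaffold raptor (0.73, adjusted p = 3.51e-05), and AKT1S1, the inhibitory PRAS40 (0.71, adjusted p = 4.72e-05), were called higher, and MTOR itself was not called (-0.07, adjusted p = 0.629). RHEBL1, a relative of RHEB, was called higher (0.99, adjusted p = 0.00052), as was the Ragulator subunit LAMTOR3 (0.63, adjusted p = 0.00787), whereas LAMTOR2 was called lower (-0.83, adjusted p = 0.002). NPRL2 and LAMTOR2 were named after their values were seen. RHEB (0.47), LAMTOR1 (-0.46), and the kinases RPS6KA1 (-0.46) and AKT2 (0.29), which phosphorylate TSC2, were under 1.5-fold.

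With glutamine, 1 of the 48 was called higher and 7 lower, where 8.45% of all genes were called higher and 8.52% lower, and their median was -0.15 (0.004 over all genes). The gene called higher was KICS2, a KICSTOR subunit, at a mean of 41.0 normalized counts in EBSS+VBL+Gln+Ars and 15.05 in EBSS+VBL+Ars (log2 fold change 1.39 ± 0.24, limma adjusted p = 0.000395). KICS2 rested on few reads, 39 to 53 per EBSS+VBL+Gln+Ars library and 8 to 15 per EBSS+VBL+Ars library. FLCN fell by 0.59 ± 0.13 (adjusted p = 0.0027) and AKT1S1 by 0.81 ± 0.12 (adjusted p = 8.86e-05). TFEB, the lysosomal regulator and mTORC1 substrate, named here after its value was seen, fell to a mean of 76.3 in EBSS+VBL+Gln+Ars, against 177 in EBSS+VBL+Ars (-1.22 ± 0.17, adjusted p = 5.37e-05). The other genes called lower were CASTOR2, WDR24, ULK1 and MAF1, of which the last 3 were also named after their values were seen. EIF4EBP1 (-0.07, adjusted p = 0.607) was not called. Against Ars, the EBSS+VBL+Gln+Ars cells had 13 of the 48 genes called higher and 5 lower, where 16.5% of all genes were called higher and 15.3% lower, with a median of 0.05 (0.02 over all genes), and RPS6KA1 was among those called lower (-1.01 ± 0.11, adjusted p = 6.17e-07). The count of 8 called with glutamine was 4 with quantile normalization, 3 with the GC trend removed and 4 without EBSS+VBL+Ars replicate 3.

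**Figure D4:**
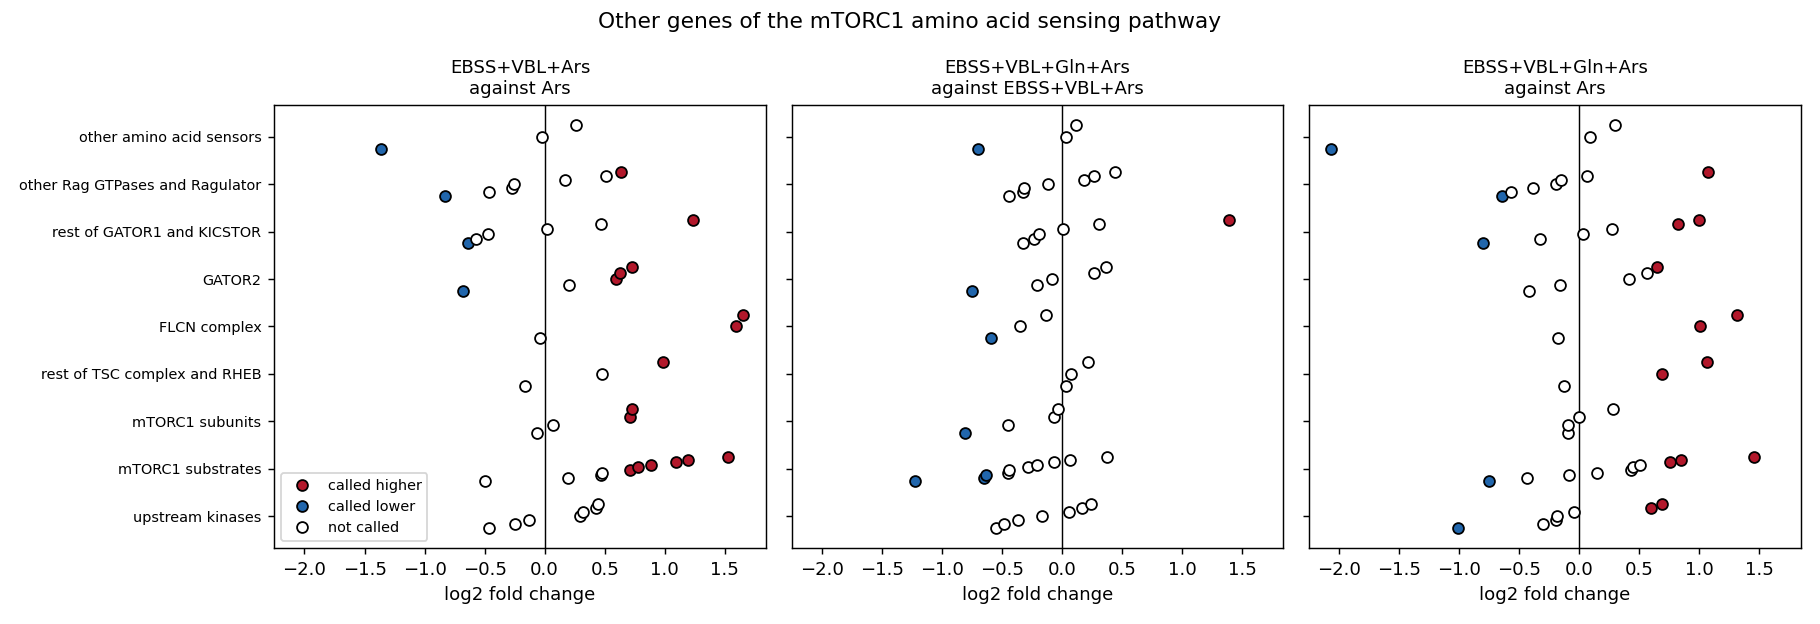
Log2 fold change (x axis) of the 48 other pathway genes tested, by list (y axis), in the 3 comparisons. Each point is a gene and its colour shows whether it was called. FLCN and FNIP1 are at 1.60 and 1.66 in the left panel, and CASTOR2 is the lowest point of the left and right panels at -1.36 and -2.07.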

How the data were processed

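RNA from U2OS cells was sequenced in 10 libraries, 3 each of EBSS+VBL+Gln+Ars, EBSS+VBL+Ars and Ars and 1 Untreated. The authors depleted rRNA, aligned single reads with STAR (hg38), used HTSeq for gene counts and DESeq2 for their normalization. For these tools the version, annotation release and strand setting are not given in the sources used here. As described, the deposited signal values are these normalized counts. Each was a whole multiple of 1 read (100% of values within 0.01 reads), which gave the recovered reads per gene. Intervals on a single library cover counting error only.

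Of 60671 genes, 12971 averaged 10 or more over the 9 replicated libraries. They were tested with limma 3.58.1 (R 4.3.3; trend, 1 spread for the 3 groups, no block) on the log2(normalized count + 1) scale, which understates changes of low genes, and p-values were adjusted by Benjamini-Hochberg over all of them. A call needed an adjusted p under 0.05 and at least 1.5-fold. edgeR 4.0.16 and DESeq2 1.42.0 on recovered reads, other scalings, filters, pseudocounts, a GC correction, a replicate block and leaving out each replicate were alternatives. The fit was tested on simulated data. Replicates of each group differed by more than counting noise. Same-numbered libraries were not taken as pairs in the main test. Their deviations correlated over 0.1 in 4 of 9 pairs, against 4 of 18 pairs of different number, which does not settle whether they were paired. Coordinates and exon lengths (the union of all annotated exons of a gene) are from GENCODE 44, to which 60401 IDs matched. Members, gene lists and tests were chosen with earlier results of these data known. All members were named, and from each other list the 2 genes with the smallest adjusted p in any comparison, except for some results that are not reported here. Plots were drawn with matplotlib 3.10.9.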

Additional observations from a re-analysis of the deposited data

How the results depend on the processing

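Of 930 values recomputed under 22 alternative settings, 868 were classed as unchanged. For the fold change of a gene, unchanged meant the same direction and the same side of the threshold. The 930 also held counts of genes called, which have no direction, and a count was classed only by how far it moved. The 868 therefore mix unlike criteria. With a minimum mean of 50, fewer genes are tested, and the genes called numbered 3635 in EBSS+VBL+Ars against Ars and 2723 in EBSS+VBL+Gln+Ars against Ars, with 4 and 3 members. With no minimum fold, the fit was the same and the adjusted p alone decided a call, which can only add calls. In EBSS+VBL+Gln+Ars against EBSS+VBL+Ars, 3729 genes, 2 members and 14 other pathway genes were then called. In EBSS+VBL+Ars against Ars, 31 other pathway genes were called in this way. For the other settings below the cause was not tested. In the glutamine comparison 0 members were called with equal totals and 0 with quantile normalization (limma; SESN2 kept an adjusted p under 0.05 in both), and 1 by edgeR and by DESeq2. Other pathway genes called were 4 with quantile normalization and 3 with the GC trend removed. edgeR called 5607 genes in EBSS+VBL+Ars against Ars, 2134 in the glutamine comparison and 4321 in EBSS+VBL+Gln+Ars against Ars, and DESeq2 called 5325, 1887 and 3988.

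No reversal concerned a called value, though the DDIT4 interval with glutamine did not include 0. In EBSS+VBL+Gln+Ars against EBSS+VBL+Ars, equal totals gave 0.24 for SESN3, 0.25 for CASTOR1, 0.0093 for RRAGC, 0.10 for TSC1 and 0.21 for DEPDC5, quantile normalization gave 3e-04 for DDIT4, and removing the GC trend gave -0.072 for SESN1 and 0.24 for CASTOR1. Removing the GC trend put RRAGD past the threshold in this comparison (-0.65, adjusted p = 0.0162).

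Leaving out 1 replicate in turn, the genes called ranged from 5220 to 5821, 1705 to 3012 and 3809 to 4229 in the same 3 comparisons, the members called from 6 to 8, 1 to 1 and 4 to 5, and the other pathway genes called from 18 to 21, 4 to 9 and 16 to 20. In EBSS+VBL+Gln+Ars against EBSS+VBL+Ars, SESN3 ranged from -0.18 to 0.16 (0.16 without EBSS+VBL+Ars replicate 1), CASTOR1 from -0.24 to 0.14, DEPDC5 from -0.18 to 0.048, and the RRAGD to RRAGC ratio from -0.29 to 0.012. DEPDC5 in EBSS+VBL+Ars against Ars ranged from -0.23 to 4e-04.

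With the replicate number as a block, 5634, 2385 and 4223 genes and 8, 1 and 5 members were called in the 3 comparisons, and SESN1 passed in EBSS+VBL+Ars against Ars (-0.80, adjusted p = 0.0464). The block together with the GC correction gave -0.072 for SESN1, 0.24 for CASTOR1, -0.51 for SESN2 (adjusted p = 1.97e-05, under 1.5-fold and so not called) and 3 other pathway genes called with glutamine. Same-numbered libraries correlated at -0.06 to 0.31 and libraries of different number at -0.31 to 0.21. SESN1, CASTOR1, RRAGC and RRAGD had few reads, as did SESN3 in starved libraries, which limits what their comparisons can show.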
